A study of Canis lupus familiaris with 58 samples.

Results

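The genes described here encode 7 secreted proteins that immune cells use to signal to each other: the chemokines CCL3, CCL4 and CCL17, and the cytokines IL6, EBI3, IL10 and IL16. They were chosen by name, as the probe sets whose only gene symbol was one of these 7, and 7 of the 15115 genes on the array (8 of 29254 probe sets with 1 symbol) met the rule. Levels came from B-cell lymphomas of 58 client-owned pet dogs, sampled before treatment, with 1 Affymetrix canine array per dog. B-cell origin was established by flow cytometry or tissue staining for B-cell markers, per the labels, and breed and age were not used here. Lymph node tissue was taken from 39 dogs, 32 with diffuse large B-cell lymphoma (DLBCL, a fast-growing cancer of large B cells) and 7 with marginal zone lymphoma (MZL). Fine needle aspirates, which draw cells through a needle, were taken from 19 dogs whose diagnosis was unknown.

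The samples were also grouped by the immunoglobulin heavy chain variable gene (IGHV), whose mutation was labelled static for 26, ongoing for 27 and ND (which the labels do not explain) for 5. Among lymph node DLBCL 18 dogs were static and 12 ongoing, among MZL 1 and 4, and among aspirates 7 and 11. Time to progression or death (progression-free survival, PFS) was known for 55 dogs, of which 47 had an event, and overall survival (OS) for 56 dogs, of which 41 had an event. The unit of time is not in the labels, and events are the dogs whose indicator is 1. All samples are bulk RNA, so fewer cells of a type and less RNA per cell cannot be told apart. The median log2 level of an array lay between 7.08 and 7.20, and mean correlations with the other arrays had a lowest value of 0.941. The 3' minus 5' difference of control probe sets, which rises as RNA degrades, had a median of 0.086 and stood above 1 on 2 arrays, a static DLBCL at 2.65 and an ongoing aspirate at 1.53. B-cell markers differed in how clearly they showed. MS4A1, which encodes CD20, had a median of 12.73 (6.96 to 13.79) and CD79B, a chain of the B-cell receptor, 10.82 (7.98 to 12.53). CD79A had a median of 8.67 (6.37 to 10.86). The B-cell regulator PAX5 had 7.21 (6.89 to 7.60), near the array medians. The lowest MS4A1 and CD79A values lay below the array medians.

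Chemokines draw cells along a gradient through receptors on the cell surface, while cytokines such as IL6 and IL10 act through receptor chains that switch on JAK kinases and STAT transcription factors. CCL3 and CCL4 attract T cells, natural killer cells and macrophages, and in human lymphoma B cells they are known as genes switched on by the B-cell receptor. CCL17 binds CCR4 on helper and regulatory T cells and is known from the tumour cells of Hodgkin lymphoma. IL6 drives B cells towards antibody secretion, EBI3 is the chain shared by the paired cytokines IL-27 and IL-35, IL10 restrains macrophages and supports B-cell growth, and IL16 attracts cells that carry CD4. Activated macrophages, T cells and natural killer cells also make several of these proteins, so a transcript in tumour tissue does not name its source.

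CCL4 varied more between dogs than nearly any other gene. Its log2 level was 7.61 ± 1.52 (SD, n = 58), with a lowest value of 4.95, a median of 7.46 and a highest of 11.37. The SD was larger than that of 99.7% of all genes, 16 dogs lay more than 1 log2 unit above the median and 10 dogs more than 2. The highest value was in an ongoing aspirate, followed by a static aspirate at 10.57 and static and ongoing DLBCL at 10.48 and 10.31. High CCL4 was thus found in both specimens and under both IGHV labels. In static DLBCL the values ran from 4.95 through a median of 7.53 to 10.48, and in ongoing DLBCL from 5.96 through 7.06 to 10.31. Static aspirates spanned 5.64 to 10.57 with a median of 8.34, ongoing aspirates 5.86 to 11.37 with a median of 7.08, and MZL 5.44 to 9.99 with a median of 8.17. The 5 ranges overlapped over most of their length.

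CCL3, the close relative of CCL4, had a level of 7.26 ± 0.61 (SD, n = 58), from 6.18 through a median of 7.13 to 9.02. Its SD exceeded that of 92.4% of genes, and 6 dogs lay more than 1 log2 unit above the median. A 2nd probe set of CCL3 correlated with the first at r = 0.886 (n = 58; 0.889 in lymph node, 0.878 in aspirates). CCL4, CCL3 and LOC480600 follow each other in the RefSeq gene table (assembly UU_Cfam_GSD_1.0). LOC480600 was looked at only because of that position, after its values were seen, and correlated with CCL4 at r = 0.801 and with CCL3 at r = 0.696 (n = 58). The probe sets used for CCL3 and CCL4 are of the kind that can match several transcripts, so signal shared among these similar chemokine genes cannot be told apart from levels that vary together. Those used for CCL17, IL6 and IL10 are also of that kind by their names. The 2nd probe set of CCL3, not of that kind by its name, correlated with CCL4 at r = 0.808, against 0.756 for the one used (n = 58). Which transcripts each probe set matches was not tested.

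CCL17 stood high in 2 dogs. Its level was 5.94 ± 0.39 (SD, n = 58), with a lowest value of 5.44 and a median of 5.88, and its SD exceeded that of 76.0% of genes. An ongoing DLBCL reached 7.48 and a static DLBCL 7.36, while the next dog, an MZL, had 6.55. These were the only dogs more than 1 log2 unit above the median. The same 2 dogs held the highest and the third highest IL10, at 9.65 and 8.81, and their 3' minus 5' differences, 0.087 and -0.15, lay far below the limit of 1.

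IL6 had a level of 6.12 ± 0.89 (SD, n = 58), from 4.94 through a median of 5.83 to 8.69, and its SD exceeded that of 97.5% of genes. More than 1 log2 unit above the median lay 13 dogs, and 2 lay more than 2 units above it. A static aspirate had the highest value, followed by a static DLBCL at 7.86 and the static DLBCL with the high 3' minus 5' difference at 7.79. IL6 was thus raised in a minority of dogs that came from both specimens. The medians of IL6 and of CCL17 (5.88) lay below the array medians (7.08 to 7.20). No background measure was used, so whether these typical levels stood above background was not tested.

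EBI3 had the smallest SD of the 7. Its level was 7.65 ± 0.34 (SD, n = 58), from 6.98 through a median of 7.62 to 8.90, and its SD exceeded that of 67.4% of genes. A static DLBCL held the highest EBI3 and also the highest CCL3, the third highest CCL4 and the fourth highest IL10 (8.81), and this dog had no outcome times. It also had the highest mean z score of the macrophage and monocyte markers, 1.80, and a cytotoxic marker score of 1.99. IL16 had a level of 10.67 ± 0.47 (SD, n = 58), from 9.75 through a median of 10.70 to 11.53; its SD exceeded that of 84.4% of genes, with 0 dogs more than 1 log2 unit above the median. IL10 had a level of 7.50 ± 0.63, from 6.55 through a median of 7.28 to 9.65, and 5 dogs lay more than 1 log2 unit above the median. Those 5 were 2 ongoing DLBCL (9.65 and 8.68), 2 static DLBCL (8.81 in each) and an ongoing aspirate (9.11).

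**Figure D1:**
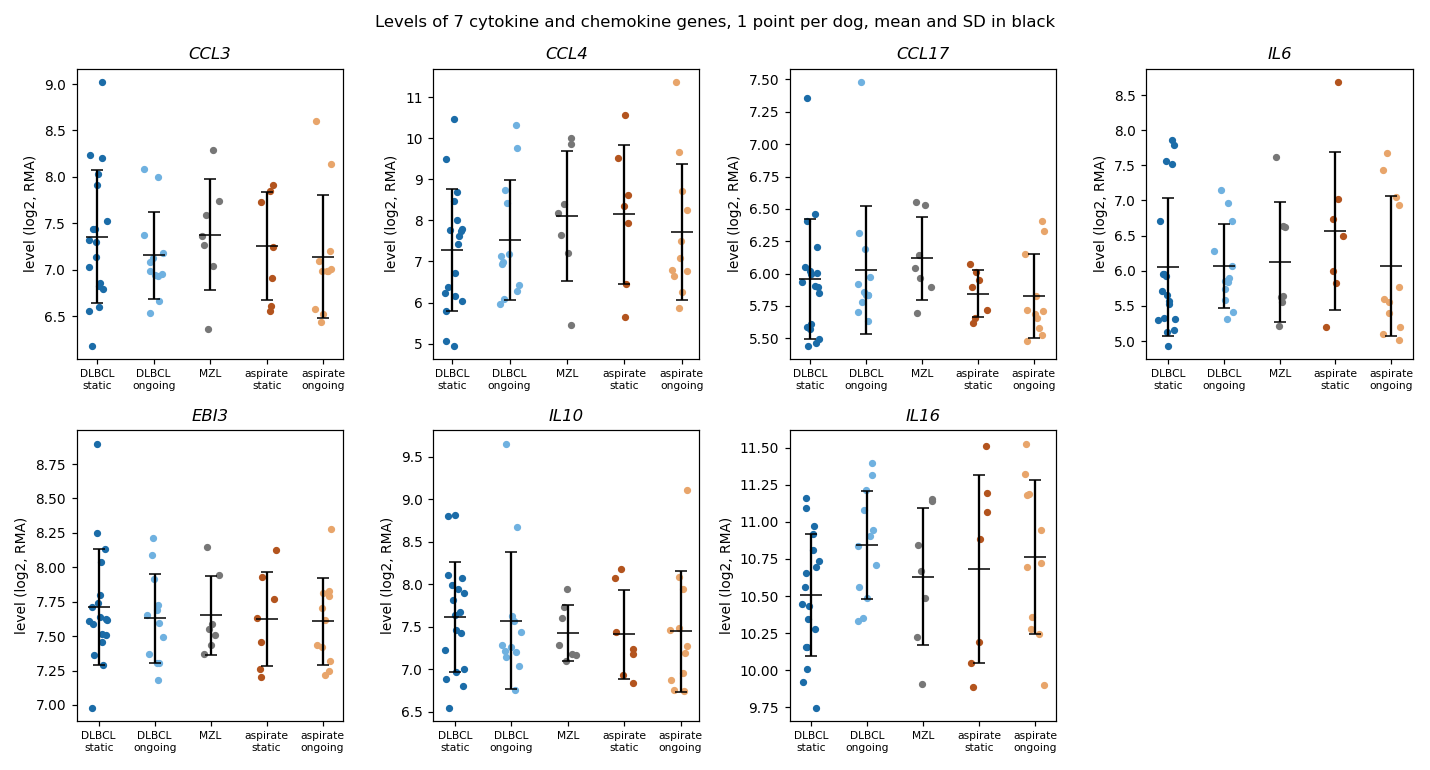
Log2 level of each of the 7 genes in 55 dogs, 1 point per dog, with black bars for the mean and SD of static and ongoing lymph node DLBCL, all MZL, and static and ongoing aspirates; the 3 DLBCL and aspirate dogs of ND status are not drawn. Every gene's 5 groups overlap, CCL4 spans the widest range (4.95 to 11.37), and the 2 high CCL17 dogs (7.48 and 7.36) stand above the rest.

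The levels of the 5 groups were put in order within each gene and each group was compared with its neighbour. The highest mean of CCL4 was in static aspirates (8.15 ± 1.69, SD, n = 7), followed by MZL (8.10 ± 1.57, n = 7), ongoing aspirates (7.72 ± 1.65, n = 11), ongoing DLBCL (7.52 ± 1.45, n = 12) and static DLBCL (7.27 ± 1.48, n = 18). IL16 was ordered from ongoing DLBCL (10.84 ± 0.37, n = 12) through ongoing aspirates (10.76 ± 0.52), static aspirates (10.68 ± 0.63) and MZL (10.63 ± 0.46) to static DLBCL (10.51 ± 0.41). IL10 was highest in static DLBCL (7.61 ± 0.64), then in ongoing DLBCL (7.57 ± 0.81), ongoing aspirates (7.44 ± 0.71), MZL (7.43 ± 0.33) and static aspirates (7.41 ± 0.53). No neighbouring means were called different in any gene: over 28 two-sided permutation tests, exact for groups of fewer than 10 dogs, the smallest raw p was 0.441 (IL6, static aspirates above MZL) and every adjusted p was 0.997. Neighbours in an order of means are the closest groups, so the choice of pairs itself favours large p values. Groups farther apart were not compared by these tests. The ends of the IL16 order, static and ongoing DLBCL, are compared below. For CCL3 and CCL17 MZL came first (7.38 and 6.12), for IL6 static aspirates (6.56), and for EBI3 static DLBCL (7.71).

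IGHV status was compared because germinal centre B cells keep mutating this gene. No gene of the 7 passed the threshold of 0.05 after adjustment in limma, against 0% of all genes, and 0 of 7 had an unadjusted p under 0.05, against 7.13% of all genes. IL16 was the nearest. Its level ran from 9.75 through a median of 10.50 to 11.51 in static dogs (10.54 ± 0.47, SD, n = 26) and from 9.90 through 10.84 to 11.53 in ongoing dogs (10.77 ± 0.45, n = 27). Ongoing dogs lay higher on average, and the ranges overlapped almost fully. With specimen and diagnosis as a stratum, static minus ongoing was -0.25 ± 0.13 (SE; 95% interval -0.51 to 0.0095; limma p = 0.0587, adjusted p = 0.718), a fold of 0.841.

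In lymph node alone the IL16 difference was -0.34 ± 0.14 (SE; limma p = 0.0185, adjusted p = 0.999), where 2.24% of all genes had an unadjusted p under 0.05, and IL16 was the only 1 of the 7 to do so. It was -0.34 in lymph node DLBCL alone (limma p = 0.0237, unadjusted) and -0.078 in aspirates alone (limma p = 0.765, unadjusted). The test of the difference between specimens gave 0.26 ± 0.27 (limma p = 0.334, adjusted p = 0.827). Leaving out each dog in turn moved the value over both specimens between -0.30 and -0.21, with an unadjusted p from 0.0213 to 0.107. B-cell markers had the same sign: 5 of 6 were lower in static dogs (median difference -0.21), with 0 at an unadjusted p under 0.05. T-cell (6 of 8), granulocyte (6 of 7, 1 at that p), erythroid (3 of 4), stroma (4 of 7) and endothelial markers (4 of 6) were also mostly lower. Macrophage (7 of 10), dendritic cell (4 of 7) and cytotoxic markers (4 of 7) were mostly higher, and plasma cell markers were split (2 of 4). The mean z score of the B-cell markers ran from -1.44 through -0.14 to 0.77 in static and from -0.83 through 0.21 to 1.07 in ongoing dogs. The part of any of these markers in the IL16 difference was not tested.

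For the other genes, static minus ongoing was 0.17 ± 0.18 (SE) for CCL3, 0.0079 ± 0.44 for CCL4, -0.034 ± 0.11 for CCL17, 0.10 ± 0.25 for IL6, 0.025 ± 0.10 for EBI3 and 0.054 ± 0.18 for IL10. The 95% interval of CCL4, -0.87 to 0.88, leaves room for a difference of almost 1 log2 unit either way, while that of EBI3 ran from -0.18 to 0.23. CCL4 turned to -0.22 and IL6 to -0.11 in lymph node alone, and CCL17 to 0.021 and IL10 to -0.034 in aspirates alone. The median of the 7 differences was 0.025, against -0.0047 over all genes, and 5 of 7 were above 0. Between specimens, the difference by IGHV status did not pass for any of the 7 (adjusted limma p from 0.787 to 0.993), against 0.0132% of all genes, and 0 of 7 had an unadjusted p under 0.05, against 9.10% of all genes. The widest of these intervals was again that of CCL4, 0.65 ± 0.92 (SE; -1.19 to 2.50).

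MZL was set against DLBCL within lymph node. CCL4 had the largest gap of the 7, with a median of 8.17 (5.44 to 9.99) in 7 MZL and 7.16 (4.95 to 10.48) in 32 DLBCL. The MZL range lay inside the DLBCL range. MZL minus DLBCL was 0.75 ± 0.60 (SE; -0.47 to 1.96; adjusted limma p = 1.00), a fold of 1.68. Of the cytotoxic lymphocyte markers 6 of 7 were also higher in MZL, with 0 at an unadjusted p under 0.05. Stroma (7 of 7), T-cell (6 of 8, 1 at that p), plasma cell (3 of 4), macrophage (6 of 10) and dendritic cell markers (4 of 7) were also mostly higher. Granulocyte (6 of 7, 1 at that p), erythroid (3 of 4), B-cell (4 of 6) and endothelial markers (4 of 6) were mostly lower. The cytotoxic score ran from -0.88 through 0.016 to 1.41 in MZL and from -1.16 through -0.52 to 1.99 in DLBCL. The part of any of these markers in the CCL4 gap was not tested. The other differences were 0.15 for CCL17, -0.13 for IL10, 0.079 for CCL3 (-0.0062 with its other probe set), 0.065 for IL6, -0.028 for EBI3 and 0.0091 for IL16. With IGHV status as a covariate IL6 turned to -0.17, EBI3 to 0.056 and IL16 to -0.26. None of the 7 passed, against 0% of all genes, and 0 had an unadjusted p under 0.05, against 1.16% of all genes.

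Aspirates minus lymph node gave 0.37 ± 0.42 (SE) for CCL4, 0.14 ± 0.24 for IL6, 0.14 ± 0.13 for IL16, -0.058 ± 0.094 for EBI3, -0.12 ± 0.17 for IL10 and -0.15 ± 0.17 for CCL3. CCL17 came nearest to the threshold, at -0.17 ± 0.11 (limma p = 0.128, adjusted p = 0.569), with a median of 5.72 (5.48 to 6.40) in aspirates and 5.91 (5.44 to 7.48) in lymph node. Both high CCL17 dogs were lymph node samples. Several marker lists were mostly higher in aspirates: 7 of 7 cytotoxic lymphocyte markers (2 at an unadjusted p under 0.05), 8 of 8 T-cell markers (5) and 6 of 6 endothelial markers (4) were higher in aspirates, and 1 of 4 erythroid markers rose past the adjusted threshold. B-cell markers were also higher, 6 of 6, while 7 of 7 dendritic cell and 7 of 10 macrophage markers were lower. In these 3 lists 0 markers had an unadjusted p under 0.05. The cytotoxic score ran from -1.16 through -0.39 to 1.99 in lymph node and from -1.16 through 0.0019 to 2.80 in aspirates, and the part of these markers in the differences was not tested. No gene of the 7 passed, against 0.119% of all genes, and 0 had an unadjusted p under 0.05, against 11.8% of all genes.

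**Figure D2:**
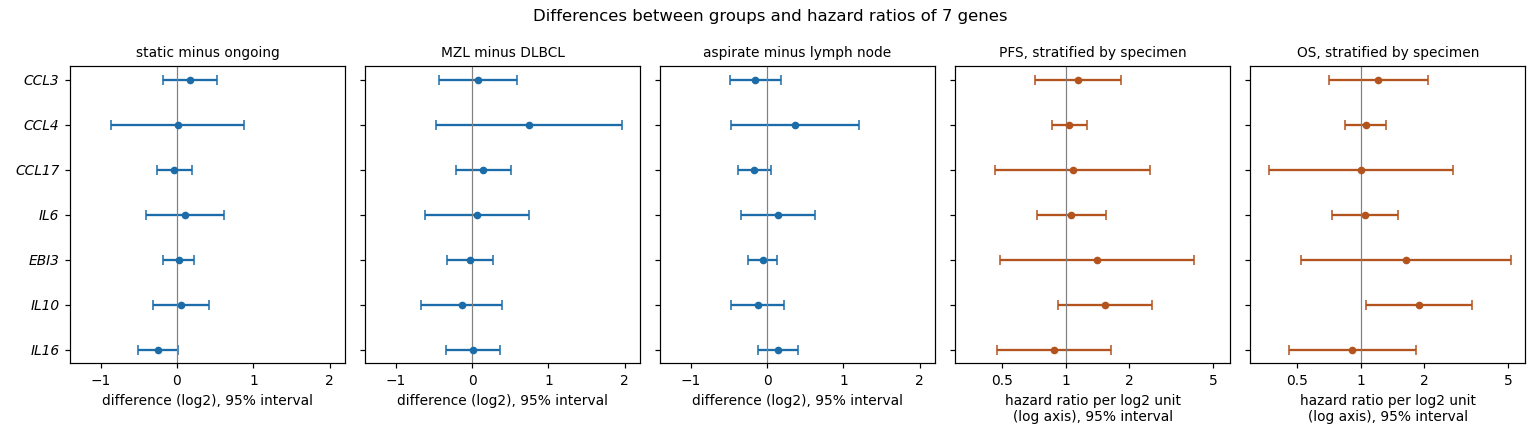
Difference in log2 level (static minus ongoing, MZL minus DLBCL, aspirate minus lymph node) and hazard ratio per log2 unit (PFS and OS, log axis) for each of the 7 genes, with points for the estimate and bars for the 95% interval. All difference intervals cross 0, and of the 14 hazard ratio intervals only that of IL10 for OS (1.06 to 3.36) lies wholly above 1.

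Survival was compared by Cox models stratified by specimen, in which a hazard ratio above 1 means more events at a higher level. IL10 had the highest z score for both outcomes. For OS its hazard ratio per log2 unit was 1.89 (95% interval 1.06 to 3.36; Cox score test p = 0.0292, adjusted p = 1.00), which does not pass the threshold over all genes. For PFS it was 1.54 (0.921 to 2.57; p = 0.0993, adjusted p = 1.00). Of the 7 genes, 0 passed for OS, against 0.00662% of all genes, and 1, IL10, had an unadjusted p under 0.05, against 3.99% of all genes. For PFS 0 passed, against 0% of all genes, and 0 had an unadjusted p under 0.05, against 2.83% of all genes. A share of 1 in 7 rests on a single gene.

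The OS hazard ratio of IL10 rested on few dogs. The dog with the highest IL10 (9.65, ongoing DLBCL) had an OS event at time 93 and the next (9.11, ongoing aspirate) at time 195. Without these 2 the hazard ratio was 1.53 (0.771 to 3.02; Cox score test p = 0.224). Leaving out each dog in turn gave hazard ratios from 1.63 to 2.10 with an unadjusted p from 0.00982 to 0.120, and the p stayed under 0.05 in 53 of 56 cases; the exceptions were those 2 dogs and an ongoing DLBCL with an IL10 of 8.68. These settings were added after the p of IL10 was seen.

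In lymph node alone the IL10 hazard ratio was 2.77 for OS (1.36 to 5.61; 37 dogs, 28 events; Cox score test p = 0.00437, adjusted p = 0.543) and 1.99 for PFS (1.09 to 3.64; p = 0.0244, adjusted p = 0.848). For OS in lymph node, 6.20% of all genes had an unadjusted p under 0.05, and IL10 was the only 1 of the 7 among them. In aspirates the IL10 hazard ratios were 1.03 for OS (0.388 to 2.74; 13 events) and 0.936 for PFS (0.376 to 2.33; 16 events). The aspirate hazard ratio for OS over that of lymph node was 0.373 (0.112 to 1.24; likelihood ratio p = 0.102), so a difference between specimens was not detectable with these dogs. Of the macrophage markers, the only list to pass with IL10 over 58 dogs, 9 of 10 had a higher OS hazard at a higher level over both specimens, with 1 of the 10 at an unadjusted p under 0.05 and 0 after adjustment. The same sign was seen in 7 of 7 stroma and 7 of 7 cytotoxic lymphocyte markers, with 0 at an unadjusted p under 0.05. It held for 5 of 7 dendritic cell (2 at that p), 4 of 6 B-cell, 3 of 4 plasma cell and 3 of 6 endothelial markers. For granulocyte, T-cell and erythroid markers it held for 3 of 7, 3 of 8 and 1 of 4. The median over all genes was -0.042 on the log hazard scale. In lymph node IL10 also passed by r with the cytotoxic (r = 0.455) and plasma cell lists (r = 0.403). By rho the plasma cell list did not pass (rho = 0.293, adjusted permutation p = 0.158). The part of these markers in the IL10 result was not tested.

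**Figure D3:**
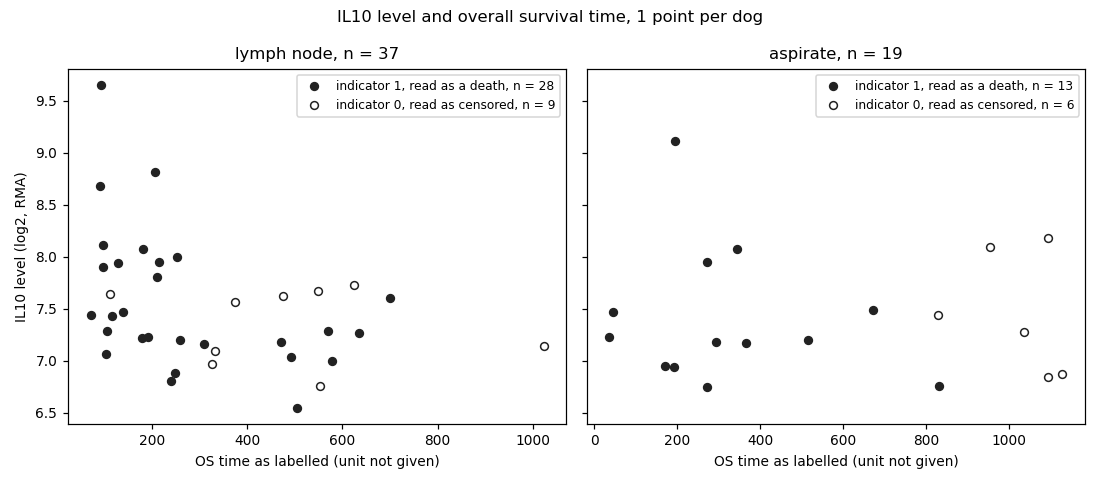
IL10 level (log2) against overall survival time as labelled, 1 point per dog, in 37 lymph node samples and 19 aspirates; filled points have an indicator of 1 (read as death) and open points an indicator of 0 (read as censored). The 3 highest lymph node values (9.65, 8.81 and 8.68) lie at times 93, 206 and 90 with an event. The highest aspirate value (9.11) lies at 195, also with an event. The hazard ratio in aspirates was 1.03 (0.388 to 2.74), and a difference between specimens was not detectable.

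CCL17 showed opposite hazard ratios in the specimens, 1.68 (0.620 to 4.57) for OS in lymph node and 0.107 (0.00838 to 1.36) in aspirates, neither past an unadjusted p of 0.05. The ratio of both was 0.0633 (0.00412 to 0.973; likelihood ratio p = 0.0336, adjusted over IL10 and CCL17 0.0672), and this test was chosen after the values were seen. The aspirate hazard ratio of 0.107 is per log2 unit, while CCL17 in aspirates ran only from 5.48 to 6.40. Over both specimens the OS hazard ratio of CCL17 was 1.00 (0.369 to 2.73). EBI3 had 1.63 (0.520 to 5.12), CCL3 1.21 (0.709 to 2.07), CCL4 1.06 (0.845 to 1.32), IL6 1.05 (0.732 to 1.50) and IL16 0.912 (0.457 to 1.82). For PFS the range over these 6 genes was 0.882 (IL16) to 1.40 (EBI3). The interval of CCL4 excludes a hazard ratio above 1.32 per log2 unit for OS at the 95% level. Those of EBI3 and CCL17 are wider per log2 unit, but these genes varied less. The SD was 1.52 for CCL4, 0.34 for EBI3 and 0.39 for CCL17, so widths per log2 unit are not comparable between them.

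The 7 genes fell into those that varied together and those that did not. Of 21 pairs, 7 had an adjusted permutation p under 0.05 for Pearson's r over 58 dogs, and 6 of these joined CCL3, CCL4, EBI3 and IL10. CCL3 and CCL4 correlated most closely (r = 0.756, rho = 0.715; adjusted permutation p = 7.00e-05 and 0.000210), with 0.745 in lymph node and 0.852 in aspirates and 0.706 without the 2 dogs farthest from the median of CCL3. The raw p of this pair, 1e-05, is the smallest these permutations can give. EBI3 correlated with CCL3 (r = 0.630, rho = 0.540; 0.552 without 2 dogs) and with CCL4 (r = 0.574, rho = 0.569; 0.566 without 2 dogs), each with an adjusted permutation p of 7.00e-05 for r and 0.000210 for rho. The 2 dogs left out were the farthest in CCL3 and in CCL4, in that order. CCL4 and EBI3 passed in lymph node (0.565) and in aspirates (0.653), while CCL3 and EBI3 had 0.686 in lymph node and 0.488 in aspirates, where the adjusted permutation p was 0.176.

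IL10 correlated less closely with the same genes: r = 0.445 with EBI3 (rho = 0.469), 0.416 with CCL4 (rho = 0.401) and 0.394 with CCL3 (rho = 0.369). The adjusted permutation p values were 0.00388, 0.00412 and 0.00700 for r, and 0.00115, 0.00823 and 0.0160 for rho. Without the 2 dogs farthest in the partner gene (EBI3, CCL4 or CCL3), the values were 0.355, 0.481 and 0.342. The 2 dogs with the highest IL10 stayed in, so these values do not show how far r rests on them. In lymph node the 3 r values were 0.548, 0.463 and 0.400, and in aspirates 0.172, 0.366 and 0.361, none of which passed there. The last passing pair, CCL17 and IL10 (r = 0.355, rho = 0.179; adjusted permutation p = 0.0242 and 0.270), rested on the 2 dogs high in CCL17, since r was -0.041 without them.

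IL10 and IL16 passed by Spearman's rho but not by Pearson's r over all dogs. Their r was -0.291 over 58 dogs (rho = -0.328; adjusted permutation p = 0.0685 and 0.0290), -0.648 in aspirates (rho = -0.582; adjusted permutation p = 0.0153 and 0.0704) and -0.069 in lymph node (rho = -0.048), where neither passed. Without the 2 dogs farthest in IL10 neither measure passed (n = 56, r = -0.270, rho = -0.309, adjusted permutation p = 0.111 and 0.0547). The difference between specimens was not tested. IL6 likewise did not pass with any other gene of the 7 by Pearson's r over 58 dogs, where its highest r was 0.245 with CCL3. By Spearman's rho it passed with EBI3 (0.332), IL10 (0.330) and CCL3 (0.312), with adjusted permutation p of 0.0290, 0.0290 and 0.0366. Without the 2 dogs farthest in IL6, r with EBI3 also passed (0.319; adjusted permutation p = 0.0484).

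Whether the levels moved with markers of B cells or of other cells was read from 10 marker lists, each as the mean z score of its genes. Of 70 pairs of gene and list 14 passed by Pearson's r over 58 dogs (adjusted permutation p under 0.05). CCL4 tracked the cytotoxic lymphocyte markers, genes of killer T cells and natural killer cells, with r = 0.909 (rho = 0.888; adjusted permutation p = 0.000175 and 0.000233). The value was 0.892 in lymph node, 0.947 in aspirates and 0.891 without the 2 dogs farthest in CCL4. All 7 markers correlated with CCL4 above 0.5, from CD8A at 0.594 to GZMK, a granzyme of killer cells, at 0.928. CCL3 had r = 0.662 with the same list (rho = 0.533; adjusted permutation p = 0.000175 and 0.000233; 0.634 in lymph node, 0.848 in aspirates, 0.561 without 2 dogs). CCL4 had r = -0.026 with the B-cell list, and CCL3 had -0.375 (rho = -0.384; adjusted permutation p = 0.0233 and 0.0214), which was -0.559 in lymph node and 0.069 in aspirates, and -0.400 without 2 dogs.

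EBI3 tracked the macrophage and monocyte markers with r = 0.791 (rho = 0.722; adjusted permutation p = 0.000175 and 0.000233), 0.765 in lymph node, 0.857 in aspirates and 0.724 without 2 dogs. Of the 10 markers 9 correlated with it above 0, from CD163 at -0.0031 to the monocyte receptor gene CD14 at 0.871. IL10 had r = 0.420 with the same list (rho = 0.456; adjusted permutation p = 0.00861 and 0.00245), with all 10 markers above 0. That r was 0.474 in lymph node, 0.293 in aspirates, where it did not pass, and 0.485 without 2 dogs. CCL3 and CCL4 also correlated with the macrophage list, at 0.546 and 0.514 (rho = 0.488 and 0.502; adjusted permutation p = 0.000175 and 0.000700 for r, 0.00120 for both rho; 0.471 and 0.509 without 2 dogs). In lymph node these were 0.582 and 0.471, and in aspirates 0.457, which did not pass, and 0.649. EBI3 had 0.500 with the cytotoxic list (rho = 0.457; adjusted permutation p = 0.00149 and 0.00255; 0.426 without 2 dogs).

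IL16 was the only 1 of the 7 with a positive correlation to the B-cell list that passed, with r = 0.487 (rho = 0.499; adjusted permutation p = 0.00120 for each). It was 0.692 in aspirates, 0.347 in lymph node, where it did not pass, and 0.514 without 2 dogs. Of the 6 B-cell markers 5 correlated with IL16 above 0, CD79B highest at 0.543, and the B-cell regulator PAX5 at -0.222. IL6 passed with the erythroid list (r = 0.456, rho = 0.477; adjusted permutation p = 0.00303 and 0.00149), at 0.431 in lymph node, 0.479 in aspirates, where it did not pass, and 0.432 without 2 dogs. All 4 erythroid markers were above 0, from 0.174 to 0.393. Erythroid markers reflect red cell precursors or blood in the sample. CCL17 passed with none of the 10 lists over 58 dogs (r from -0.25 to 0.24). In lymph node alone it passed with the plasma cell list by r (0.433, rho = 0.287; adjusted permutation p = 0.0257 and 0.159), against -0.172 in aspirates, and over all dogs that r was 0.238, and 0.032 without the 2 dogs high in CCL17.

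The remaining 4 passing pairs were CCL4 with plasma cell markers (r = 0.537, rho = 0.507; adjusted permutation p = 0.000280 and 0.00120; r = 0.448 without 2 dogs), CCL3 with stroma (r = 0.393, rho = 0.444; adjusted permutation p = 0.0134 and 0.00245; r = 0.400 without 2 dogs), and EBI3 with endothelium and stroma. EBI3 had r = 0.389 with endothelium (rho = 0.335; adjusted permutation p = 0.0206 and 0.0485; r = 0.316 without 2 dogs) and 0.352 with stroma (rho = 0.321; adjusted permutation p = 0.0387 and 0.0493; r = 0.311 without 2 dogs). In lymph node r was 0.518, 0.536, 0.614 and 0.380 for these 4, and only EBI3 with stroma did not pass. Further pairs passed by r in lymph node but not over all dogs. These included CCL3 with erythroid (0.603) and endothelial markers (0.547) and CCL4 with stroma (0.412). EBI3 did so with erythroid (0.477) and B-cell markers (-0.407), and IL10 with cytotoxic (0.455) and plasma cell markers (0.403). By rho, EBI3 with B-cell markers (-0.227, adjusted permutation p = 0.281) and IL10 with plasma cell markers (0.293, adjusted permutation p = 0.158) did not pass. In aspirates none of these further pairs passed. Over all dogs, EBI3 with endothelium and EBI3 with stroma lost their call without the 2 farthest dogs. These data do not settle whether the lymphoma cells made CCL3, CCL4, EBI3 or IL10. Over 58 dogs CCL3, CCL4 and EBI3 followed markers of killer lymphocytes and of macrophages. IL10 followed those of macrophages, while its r of 0.321 with the cytotoxic list did not pass (adjusted permutation p = 0.0583). Which cells held the transcripts was not tested. RNA integrity moved little with any of the genes: r with the 3' minus 5' difference lay between -0.221 (IL16) and 0.175 (CCL3), and between -0.161 and 0.094 without the 2 arrays above 1.

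**Figure D4:**
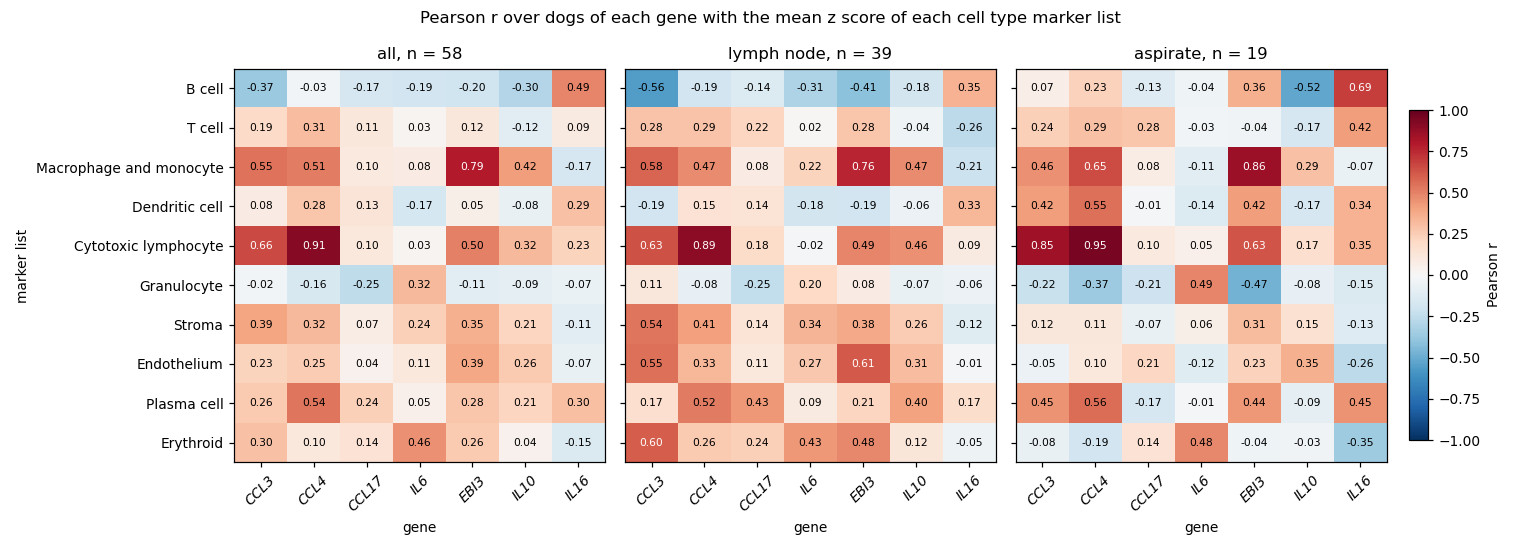
Pearson r over dogs between each gene (columns) and the mean z score of each of 10 cell type marker lists (rows), for all 58 dogs, 39 lymph node samples and 19 aspirates. CCL4 and cytotoxic lymphocytes (0.909, 0.892 and 0.947) and EBI3 and macrophages (0.791, 0.765 and 0.857) are the darkest cells in every panel, and IL16 alone is clearly red for B cells over all dogs (0.487).

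**Figure D5:**
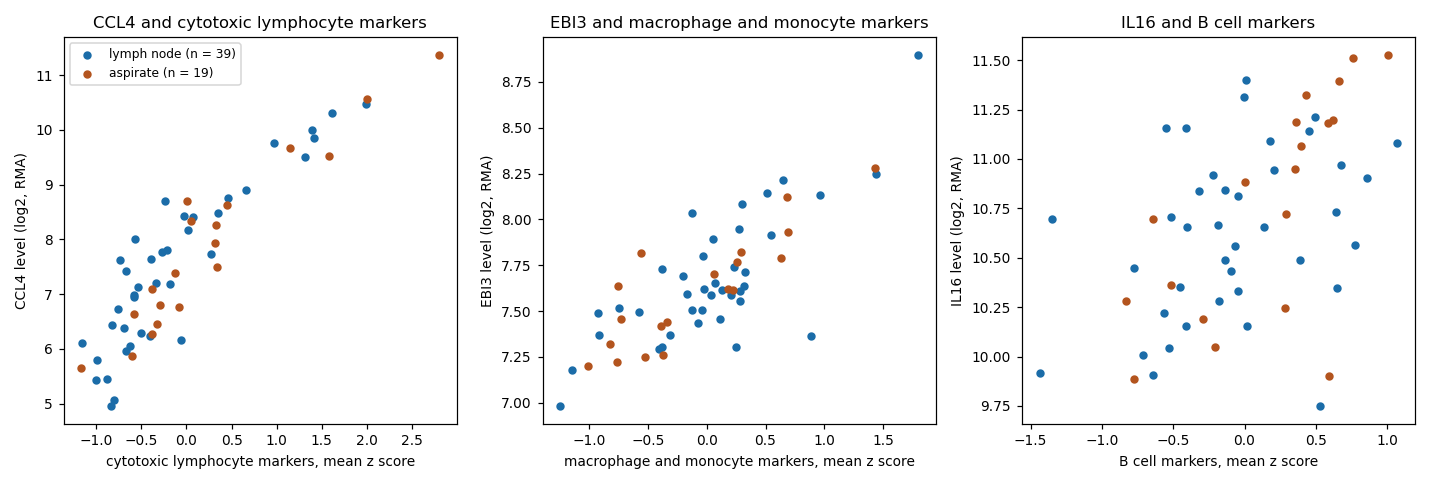
Level (log2) of CCL4, EBI3 and IL16 against the mean z score of cytotoxic lymphocyte, macrophage and monocyte, and B-cell markers, 1 point per dog, with lymph node (n = 39) and aspirates (n = 19) in separate colours. CCL4 rises along the whole range of cytotoxic markers (r = 0.909), EBI3 rises with a single dog at the upper right end (r = 0.724 without the 2 farthest dogs), and IL16 scatters widely (r = 0.487).

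The genes whose levels were most like each member's were ranked by Pearson r over 58 dogs among 14541 genes, as a description with no test. For CCL4 they were GZMK (0.928), NKG7, a granule membrane gene of killer cells (0.908), and the chemokine gene CCL5 (0.896), with r of 0.879 or more without the 2 farthest dogs. For CCL3 they were CCL4 (0.756), NAGK, an amino sugar kinase gene (0.694), and NKG7 (0.685). EBI3 was most like NR1H3, which encodes the sterol-sensing receptor LXR alpha (0.891), CD14 (0.871) and the cytokine gene IL15 (0.868). IL10 was most like RHOQ, a small GTPase gene (0.681), NFIL3, a transcription factor gene that interleukins induce (0.664), and TFEC, a transcription factor gene of macrophages (0.659). IL16 was most like SH2D3C, an adaptor gene (0.681), ACP5, which encodes the tartrate-resistant phosphatase (0.680), and FAM221A (0.662).

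IL6 had no close match, with CRTAM, a receptor gene of activated killer cells (0.544), JHY (0.542) and SPRED2, an inhibitor of RAS signalling (0.527), in front. For CCL17 the first 3 were ARSL (0.735), AOX2 (0.727) and SYTL2 (0.723), but these rested on the 2 high dogs: without them r was 0.343, 0.275 and 0.338.

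The receptors, relatives and signalling genes around these cytokines were read from 4 lists. None of their measured members passed the adjusted threshold in any of the 6 comparisons: 0 of 13 receptors, 0 of 36 partner and related ligands, 0 of 21 JAK-STAT genes and 0 of 19 genes induced by the antigen receptor or NF-kB. For IGHV status, where 7.13% of all genes had an unadjusted p under 0.05, 1 of 13 receptors and 1 of 21 JAK-STAT genes did so, both higher in static dogs, as did 6 of 36 ligands (1 higher, 5 lower) and 1 of 19 induced genes (lower). IL10RA, the ligand-binding chain for IL10, differed by 0.15 ± 0.051 (SE), CCL24, a chemokine gene for eosinophils, by 0.19 ± 0.065, the STAT-induced kinase gene PIM1 by 0.27 ± 0.099 and CD40, the receptor for T-cell help, by -0.24 ± 0.084, each with an adjusted limma p of 0.670. IL10RA was at 0.10 and PIM1 at 0.23 in lymph node alone, and CCL24 at 0.064 and CD40 at -0.090 in aspirates alone, each with an unadjusted limma p above 0.05. Receptors had a median of -0.017, ligands -0.0016, JAK-STAT genes -0.013 and induced genes -0.040, against -0.0047 over all genes.

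Between specimens, where 11.8% of all genes had an unadjusted p under 0.05, 3 of 13 receptors did so, all higher in aspirates, as did 6 of 36 ligands (4 higher, 2 lower), 1 of 21 JAK-STAT genes and 1 of 19 induced genes (both lower). IL12RB1, a chain of the IL-12 and IL-23 receptors, came closest to a call at 0.16 ± 0.039 (SE; adjusted limma p = 0.0560). CCL21, the chemokine that brings T cells into lymph nodes, was at 0.65 ± 0.20 (adjusted limma p = 0.143) and MYC at -0.62 ± 0.17 (adjusted limma p = 0.0894). For OS, 2 of 21 JAK-STAT genes, 3 of 36 ligands and 1 of 19 induced genes had an unadjusted p under 0.05, against 3.99% of all genes. The kinase gene PIM2 had an OS hazard ratio of 5.08 per log2 unit (1.29 to 20.0; Cox score test p = 0.0191, adjusted p = 1.00). This was 10.0 in lymph node and 1.66 in aspirates, 2.88 without a stratum (Cox score test p = 0.108) and 3.67 with the mean of its probe sets (Cox score test p = 0.272). For diagnosis 1 of 36 ligands and 1 of 19 induced genes reached that level, against 1.16% of all genes, and for PFS 4 of 36 ligands and 1 of 21 JAK-STAT genes, against 2.83%. None of the 13 receptors, IL10RA and IL10RB among them, had an unadjusted p under 0.05 for OS.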

How the data were processed

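RNA was extracted with Trizol, labelled with biotin and hybridised to Affymetrix arrays, per the labels' protocols. Log2 values of 43035 probe sets (2.82 to 15.11, 0 missing) were deposited by the authors, made with Expression Console and RMA, per the submitters' processing notes; the log2 scale was read from the values, and versions are not given in the sources used here. Each sample is 1 dog. The highest correlation of any arrays was 0.990. A gene's level was that of its brightest probe set on average, among those with 1 symbol (29254; 439 had several symbols, 13231 none, 111 were controls), which gave 15115 genes. No background measure or level filter was used, and levels of different genes were not compared.

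The 7 genes and all lists were chosen with earlier results of these data known. Models were fitted to all genes with limma 3.58.1 (R 4.3.3) and adjusted by Benjamini-Hochberg at 0.05, two-sided. IGHV status used 53 dogs and a stratum of 3 levels (DLBCL, MZL, aspirate), diagnosis 39, and specimen 58 without covariates. Outcomes used a Cox score test with Breslow ties, stratified by specimen, with hazard ratios from survival 3.8.3. Indicator 1 was taken as the event since PFS equalled OS in each of the 8 dogs whose PFS indicator was 0. Correlations used 100000 permutations, adjusted over 21 pairs of genes or 70 pairs of gene and list. The limma step was tested on simulated data: of 200 genes of 15115 changed by 1 log2 unit for IGHV status, 98% were recovered. Those genes were drawn from all genes, most of which vary less than CCL4 or IL6, and the change was larger than any IGHV difference of the 7. The share therefore does not measure the power to find smaller differences in these genes. Named genes were the 7, the 3 most alike of each (no LOC symbols), and up to 4 past the threshold or else the 2 with the smallest p of each list. The measured members of the lists numbered 13 of 14 receptors, 36 of 39 ligands, 21 of 22 JAK-STAT and 19 of 22 induced genes. Alternatives covered probe sets, normalization, a level filter, strata, tests and arrays left out. Figures were drawn with matplotlib 3.10.9.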

Additional observations from a re-analysis of the deposited data

How the results depend on the processing

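Over the alternatives run, 270 values of the 7 genes were recomputed: 246 kept their direction and their side of the threshold, 24 changed sign and 0 passed the threshold, with a smallest adjusted p of 0.497. No changed sign belonged to a value past the threshold, and the cause was not tested. For IGHV status the reversed values were, for CCL4, -0.17 without a stratum and in the rank-sum test, -0.22 in lymph node and -0.25 in DLBCL alone; for IL6, -0.036 without the 2 arrays that correlate least, -0.11 in lymph node and -0.020 in DLBCL alone; and in aspirates 0.021 for CCL17 and -0.034 for IL10. For diagnosis they were IL16 at -0.014 without arrays of high 3' minus 5' difference, IL6 at -0.17, EBI3 at 0.056 and IL16 at -0.26 with IGHV status as a covariate, and CCL3 at -0.0062 with its other probe set. Hazard ratios crossed 1 in aspirates alone for PFS (CCL17 0.170, IL6 0.830, IL10 0.936, IL16 1.02) and OS (CCL17 0.107, IL6 0.976, IL16 1.23), and with IGHV status as another stratum for IL16 (PFS 1.08, OS 1.21) and CCL17 (OS 0.934). The count of passing pairs of genes, 7 over all dogs, was 7 in lymph node and 3 in aspirates, and that of gene and marker list pairs, 14 over all dogs, was 20 in lymph node, 6 in the 19 aspirates and 12 without the 2 farthest dogs. The correlation of CCL17 and IL10 turned to -0.041 without the 2 farthest dogs and that of CCL3 with the B-cell list to 0.069 in aspirates. IL12RB1 passed the threshold between specimens with the mean of probe sets (0.16), quantile normalization (0.17) and without the 2 arrays that correlate least (0.17). It did not pass without arrays of high 3' minus 5' difference (0.15, adjusted limma p = 0.148). Nor did it pass against lymph node DLBCL only (adjusted limma p = 0.106) or by the rank-sum test (adjusted rank-sum p = 0.0806). The filter on low levels kept only IL16 of the 7, so the others have no value there. Leaving out each dog gave -0.30 to -0.21 for IL16 by IGHV status and 1.63 to 2.10 for IL10 and OS; it was not run for comparisons as a whole, since no gene of the 7 passed in any. No paired analysis was possible because each dog gave 1 sample and dog numbers are not shared between groups. The number of arrays, above all 7 MZL and 13 OS events in aspirates, limits the precision.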
